A study of Mus musculus with 8 samples.

Results

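The histone deacetylases *Hdac1*, *Hdac2*, *Hdac3*, *Hdac4*, *Hdac5*, *Hdac6*, *Hdac7*, *Hdac8*, *Hdac9* and *Hdac11* were followed in fibro/adipogenic progenitors (FAPs), the mesenchymal cells of muscle that can become fat cells or fibroblast-like cells. The 10 genes were chosen by name, as class I, II and IV members of the family and as the proteins on which drugs given to dystrophic FAPs act, and they are 10 of the 31053 genes counted. FAPs came from the hind limb muscles of *mdx* mice (strain C57BL/10ScSn-Dmdmdx/J), which lack dystrophin, aged 45 days. They were sorted as cells without CD45, CD31 and Integrin alpha-7 that carried much or little SCA-1 on the surface, and were then grown for 5 days in growth medium (GM), with no inducer of differentiation. Each cell state, SCA1-High-FAPs or SCA1-Low-FAPs, had 4 libraries. Every library therefore came from dystrophic mice and from cells expanded in culture, and no library of healthy mice or of drug-treated cells was compared here.

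Histone deacetylases remove acetyl groups from lysines of histones and of other proteins. Class I enzymes are mainly nuclear and most of them work as the catalytic subunit of corepressor complexes. Class IIa members carry a long N-terminal arm that binds MEF2 transcription factors, have little catalytic activity of their own, and leave the nucleus when kinases phosphorylate them and adaptor proteins of the Ywha family bind. Inhibitors of these enzymes are known to act on FAPs of young dystrophic muscle, where they favour regeneration over fat and scar formation.

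The libraries were made from the 3′ ends of mRNAs, so that a transcript gives reads near its end whatever its length. Between 1880561 and 3985656 reads per library were counted on genes, of which 924 to 2263 fell on the 10 histone deacetylase genes. Levels are given as CPM, counts scaled by TMM to a common library size, and 3 counts, the least taken as detectable, stood at 0.788 to 1.62 CPM. Counts of *Xist* and of Y-linked genes put replicates 1 and 2 of both cell states with male mice and replicates 3 and 4 with female mice, so sex was balanced between the states. Of the 6 FAP markers, all were expressed and their summed level lay at 1607 to 2277 CPM in SCA1-High-FAPs against 1881 to 2059 CPM in SCA1-Low-FAPs. Their sum hides calls in both directions: *Dcn* was lower in SCA1-Low-FAPs (−2.08 on the log2 scale, adjusted *p* = 0.0167, edgeR) and *Thy1* higher (0.67, adjusted *p* = 0.0105, edgeR). *Ly6a*, which encodes SCA-1 itself, went against the names of the states after culture, with 706.6 CPM in the libraries labelled SCA1-High-FAPs and 1082 CPM in those labelled SCA1-Low-FAPs (adjusted *p* = 0.0341, edgeR), and the names below refer to the sort. *Pax7*, *Myf5*, *Myod1* and *Myog* of satellite cells had no count in any library, and the summed markers of satellite cells, endothelial cells and leucocytes reached at most 9.75, 7.35 and 10.8 CPM. Those of pericytes and Schwann cells reached at most 22.4 and 5.39 CPM. Those of tenocytes ran from 16.2 to 47.6 CPM in SCA1-High-FAPs against 9.98 to 18.6 CPM in SCA1-Low-FAPs. Of these 3 lists only *Tnmd* of tenocytes had enough counts to be tested. It was lower in SCA1-Low-FAPs but not called (−1.55 on the log2 scale, adjusted *p* = 0.053, edgeR). Its levels did not overlap between the states, which was so for 14.1% of all tested genes.

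Of the 8 histone deacetylases that had enough counts to be tested in edgeR, *Hdac4* was the only one called as different between the cell states. It was higher in SCA1-Low-FAPs, with 70.7 ± 7.7 CPM against 42.5 ± 6.6 CPM (mean ± SD, n = 4 each). *Hdac2*, *Hdac1*, *Hdac3* and *Hdac8* of class I, *Hdac5* and *Hdac7* of class IIa and *Hdac6* of class IIb did not pass the test, and *Hdac9* and *Hdac11* had too few reads to be tested. A gene was called when the adjusted *p*-value was under 0.05 and the log2 fold change, here always SCA1-Low-FAPs over SCA1-High-FAPs, was beyond 0.5 in size. By this rule 7.68% of the 10181 tested genes were called, 3.32% as higher in SCA1-Low-FAPs and 4.36% as higher in SCA1-High-FAPs, so that 1 call among 8 genes was close to the rate over all genes. The median log2 fold change of the 8 genes was −0.15, beside 0.00029 over all tested genes.

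**Figure D1:**
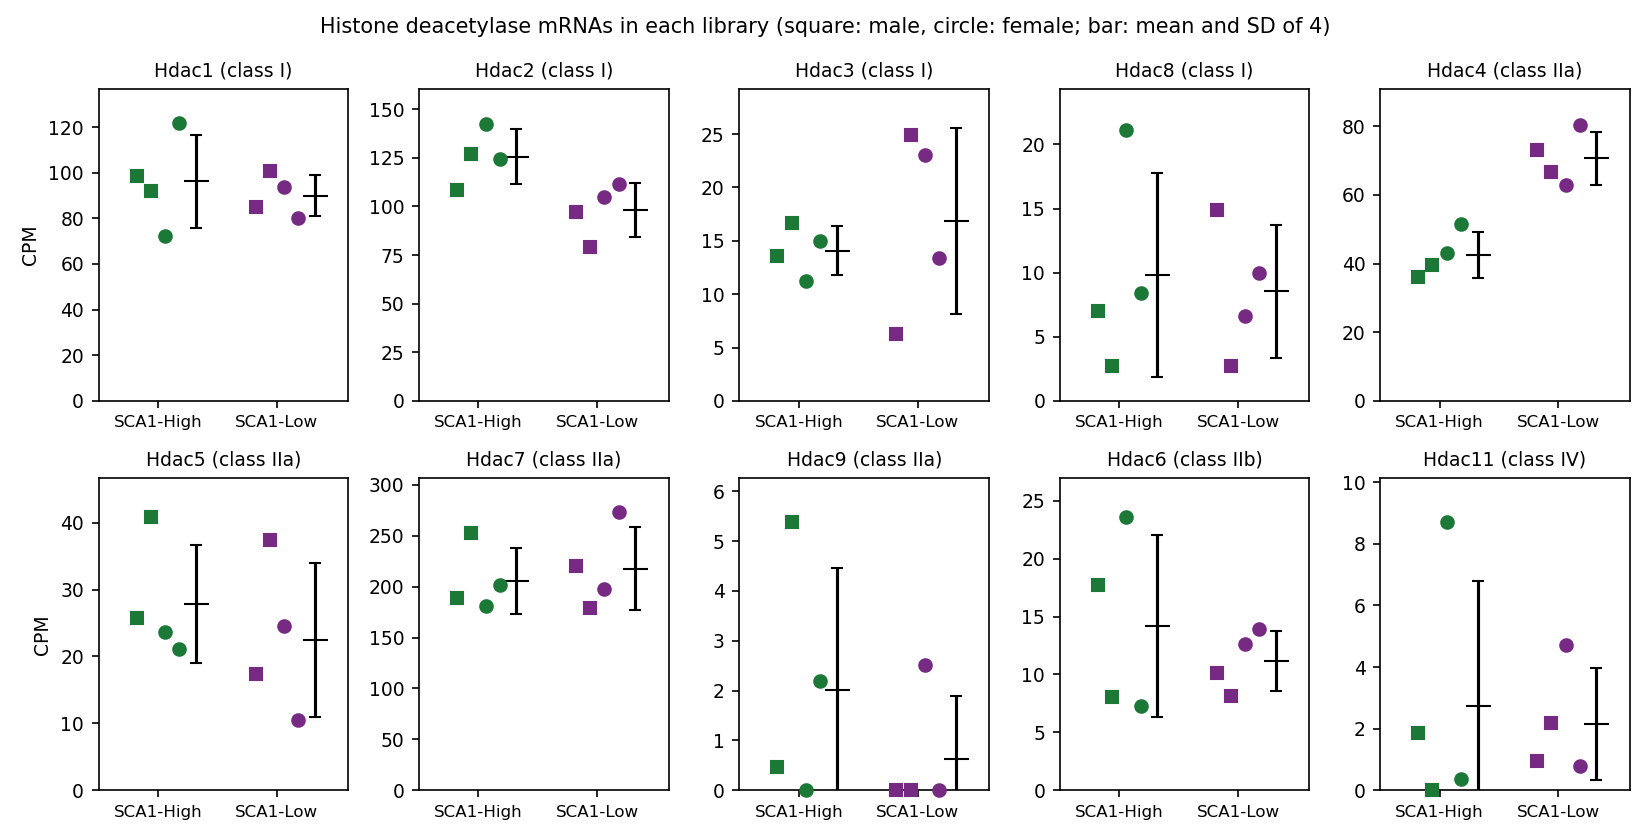
Level of each of the 10 histone deacetylase mRNAs in CPM (vertical axis, starting at 0 in each panel) in the 4 libraries of each state, SCA1-High-FAPs (green) or SCA1-Low-FAPs (purple), with squares for male and circles for female mice and black bars for the mean and SD, drawn down to 0 at the lowest. *Hdac4* is the only panel in which the states do not overlap: SCA1-High-FAPs end at 51.4 CPM and SCA1-Low-FAPs begin at 62.8 CPM.

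The mRNAs covered a wide range of levels. *Hdac7* was the most abundant by read count, with 211.8 ± 34.8 CPM over the 8 libraries (mean ± SD), followed by *Hdac2* with 111.9 ± 19.6 CPM and *Hdac1* with 93.1 ± 15.01 CPM. *Hdac4* came next with 56.6 CPM, then *Hdac5* with 25.1, *Hdac3* with 15.5, *Hdac6* with 12.7 and *Hdac8* with 9.18 CPM, and *Hdac11* and *Hdac9* closed the order with 2.45 and 1.32 CPM. The ubiquitous nuclear enzymes *Hdac1* and *Hdac2* and the class IIa member *Hdac7* thus held most of the reads. In SCA1-High-FAPs the means of 2 pairs of neighbours, *Hdac7* over *Hdac2* and *Hdac1* over *Hdac4*, stood apart by more than their SDs, and in SCA1-Low-FAPs *Hdac4* over *Hdac5* did so too. All other neighbours lay within their spread. The same levels divided by the exonic length of the gene, in CPM per kb, gave 31.3 for *Hdac7*, 27.0 for *Hdac1* and 25.0 for *Hdac2*, so that *Hdac1* and *Hdac2* changed places. On this scale *Hdac3* (3.82 CPM per kb) moved ahead of *Hdac4* (3.58 CPM per kb), whose annotated exons add up to 15813 bases. Because these libraries read transcript ends, the first scale is the one that follows the number of transcripts more closely, and the second is given for comparison between genes per length.

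*Hdac4* encodes a class IIa deacetylase known in muscle for holding MEF2 factors inactive. The gene lies on the minus strand of chromosome 1 (chr1:91928779-92195699, GRCm38), and its annotated exons share 3536 bases with exons of *Gm26720*, a long non-coding RNA gene of the opposite strand that had 0 counts in all 8 libraries. The strand setting of the counting is not given in the sources used here, so these 0 counts do not show that the shared bases left the count of *Hdac4* unchanged. The RefSeq promoter entry of *Hdac4*, 250 bases before to 50 bases after a start site inside the span of the gene, is shown because *Hdac4* is the gene that differed, beside that of *Hdac5*, the class IIa gene with a single entry that did not pass the test. These libraries measured transcript ends and nothing at the promoter. Capitals mark the CCAAT box (CCAAT), the GC box (GGGCGG), the cyclic AMP response core (TGACGT) and the MEF2 motif, each searched on both strands. No marked matches overlap one another. The *Hdac4* entry is chr1:92180292-92180591 and the *Hdac5* entry is chr11:102230123-102230422, both on the minus strand of GRCm38.p6 and written 5′ to 3′ along the gene.
Hdac4: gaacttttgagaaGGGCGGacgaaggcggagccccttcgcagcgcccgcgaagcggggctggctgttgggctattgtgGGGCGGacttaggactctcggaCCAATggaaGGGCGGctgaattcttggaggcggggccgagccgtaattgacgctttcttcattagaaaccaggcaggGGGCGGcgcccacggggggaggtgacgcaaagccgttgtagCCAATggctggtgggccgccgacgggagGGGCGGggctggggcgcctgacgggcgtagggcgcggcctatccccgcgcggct
Hdac5: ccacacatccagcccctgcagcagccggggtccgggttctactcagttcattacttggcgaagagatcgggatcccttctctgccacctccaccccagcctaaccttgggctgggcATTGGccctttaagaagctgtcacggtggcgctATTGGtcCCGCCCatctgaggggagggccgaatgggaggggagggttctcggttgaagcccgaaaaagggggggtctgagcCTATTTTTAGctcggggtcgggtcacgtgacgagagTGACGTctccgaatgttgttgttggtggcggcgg

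The *Hdac4* entry held 5 GC boxes and 2 CCAAT boxes, the latter at positions −150 and −32 counted from the start site. The *Hdac5* entry held 1 GC box, 2 CCAAT boxes, 1 cyclic AMP response core and 1 MEF2 match, and the last of these began at position −20. Among the 32851 promoter entries of the table, 35.7% held a GC box, 37.4% a CCAAT box, 7.51% the TGACGT core and 3.19% a MEF2 match on either strand. Entries were read for 8 of the 10 genes, 12 entries in all, and among these a MEF2 match was in the *Hdac5* entry alone. Entries on chromosome 18, where *Hdac3* lies, were left out for the histone deacetylases, and no entry was read for *Hdac1*. The promoters of *Hdac1* and *Hdac3* were therefore not searched. A match of letters is not a bound site.

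In the 4 SCA1-High-FAPs libraries *Hdac4* had 77, 88, 104 and 141 counts, or 36.0, 39.5, 43.1 and 51.4 CPM. In the 4 SCA1-Low-FAPs libraries it had 152, 123, 199 and 306 counts, or 73.1, 66.6, 62.8 and 80.4 CPM. Each SCA1-Low-FAPs library was above each SCA1-High-FAPs library, which was so for 14.1% of all tested genes in one or the other direction. The log2 fold change was 0.73 with a standard error of 0.20 and a 95% interval from 0.32 to 1.14, or 1.66-fold (1.25 to 2.21), and the adjusted *p*-value over all tested genes was 0.0284 (edgeR).

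Because the states did not overlap, every pairing of libraries and every split by sex must show the same direction. The values that follow therefore give the size of the difference and are no further evidence for its sign. The 4 same-numbered pairs, which were not shown to be true pairs, had ratios of 2.03, 1.68, 1.46 and 1.56. For male mice the mean rose from 37.8 to 69.8 CPM between SCA1-High-FAPs and SCA1-Low-FAPs. For female mice it rose from 47.3 to 71.6 CPM, with 2 libraries per state in either sex. Between the sexes themselves *Hdac4* overlapped, with 53.8 ± 18.8 CPM in male and 59.4 ± 16.1 CPM in female libraries (n = 4 each). With sex as a term of the fit, a setting added after the data had been seen, the adjusted *p*-value was 0.0265 (edgeR).

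The call was near the threshold. With the replicate number as a block the log2 fold change of *Hdac4* was 0.73 again and the adjusted *p*-value rose to 0.0504 in edgeR, and in DESeq2 with the block it was 0.0698, beside 0.014 in DESeq2 without it. The call was also lost when SCA1-High-FAPs replicate 1, 2 or 3 or SCA1-Low-FAPs replicate 1 or 4 was left out (adjusted *p* = 0.0763, 0.0666, 0.0534, 0.0779 and 0.118, edgeR). Over the 16 alternatives the log2 fold change stayed between 0.65 and 0.84.

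**Figure D2:**
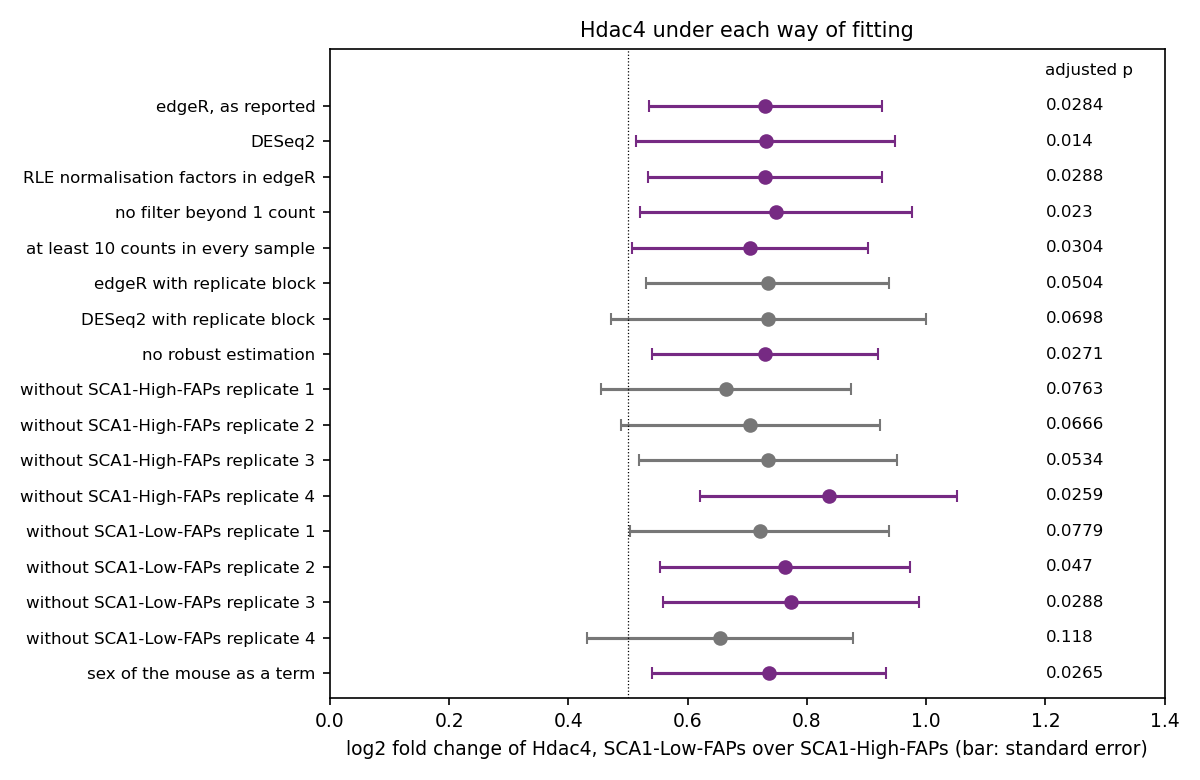
Log2 fold change of *Hdac4* (horizontal axis, SCA1-Low-FAPs over SCA1-High-FAPs, bars for 1 standard error) under the reported fit and 16 alternatives, with the adjusted *p*-value at the right and purple where the gene was called. The estimates stay between 0.65 and 0.84 while 9 of the 16 alternatives keep the call.

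Markers of dividing cells and of fat cells moved with the cell states and so with *Hdac4*. All 6 genes of the cycling list (*Mki67*, *Top2a*, *Ccnb1*, *Cdk1*, *Birc5* and *Aurka*) were called as higher in SCA1-Low-FAPs, and their summed level ran from 1015 to 1486 CPM there against 520.0 to 729.2 CPM in SCA1-High-FAPs. The 5 fat cell markers summed to 917.2 to 4306 CPM in SCA1-High-FAPs against 105.3 to 576.4 CPM in SCA1-Low-FAPs, with *Adipoq* called as higher in SCA1-High-FAPs and *Lep* at 0 in every library. The part of these markers in the difference of *Hdac4* was not tested. In RNA from whole cultures, fewer cells of a type and less RNA per cell cannot be told apart.

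The 3 tested genes whose profile over the 8 libraries lay nearest to that of *Hdac4* were *Higd1a*, *Abcc1* and *Tagln2*. Their log2 CPM, centred on the mean of each gene, differed from that of *Hdac4* by a root mean square of 0.10, 0.10 and 0.11, beside a median of 0.56 over all tested genes. *Higd1a* encodes a mitochondrial protein, *Abcc1* an export transporter and *Tagln2* an actin-binding protein. Their log2 fold changes were 0.84, 0.69 and 0.78, and values near that of *Hdac4* follow from the way these genes were chosen.

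*Hdac7*, the most abundant class IIa gene, is on chromosome 15 (chr15:97792664-97844502, minus strand, GRCm38). It had 188.4, 252.5, 180.8 and 201.2 CPM in SCA1-High-FAPs against 220.6, 178.7, 198.0 and 273.6 CPM in SCA1-Low-FAPs, so the states overlapped widely. The lowest and the highest library were both SCA1-Low-FAPs. Its log2 fold change was 0.08 with a 95% interval from −0.27 to 0.43 (adjusted *p* = 0.837, edgeR), an interval within the size of 0.5 used for a call. The gene shares 29 exonic bases with *Slc48a1* on the opposite strand, which had 4307 counts in all, and the strand setting of the counting is not given in the sources used here.

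*Hdac5*, which like *Hdac4* binds MEF2 factors, was read at 25.7, 40.9, 23.6 and 21.1 CPM in SCA1-High-FAPs. In SCA1-Low-FAPs it was read at 17.3, 37.4, 24.6 and 10.5 CPM. Replicate 2 was the highest library in both states and SCA1-Low-FAPs replicate 4 was the lowest of all. The log2 fold change was −0.33 with a wide 95% interval from −1.07 to 0.41 (adjusted *p* = 0.653, edgeR), so that neither a fall nor a small rise could be told from the spread.

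*Hdac9*, the remaining class IIa gene, was near the limit of detection. It had 1, 12, 0 and 6 counts in SCA1-High-FAPs against 0, 0, 8 and 0 counts in SCA1-Low-FAPs. The states overlapped, and at this depth no difference was detectable. The class IIa genes together summed to 278.1 ± 42.1 CPM in SCA1-High-FAPs against 311.5 ± 37.4 CPM in SCA1-Low-FAPs (n = 4 each) and overlapped.

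*Hdac2* was the class I gene with the largest difference relative to its error. This enzyme and *Hdac1* are the paired catalytic subunits of the Sin3, NuRD and CoREST complexes. Its levels were 108.5, 127.2, 142.6 and 124.3 CPM in SCA1-High-FAPs against 97.1, 79.1, 104.7 and 111.3 CPM in SCA1-Low-FAPs. SCA1-Low-FAPs were the lower in each of the 4 same-numbered pairs, which were not shown to be true pairs. The share of all tested genes with the same direction in all 4 pairs was not counted. The highest SCA1-Low-FAPs library, replicate 4, exceeded the lowest SCA1-High-FAPs library, replicate 1. The log2 fold change was −0.36 ± 0.16 (SE) with a 95% interval from −0.70 to −0.0095, and an unadjusted *p*-value of 0.0447 became 0.22 after adjustment over all tested genes (edgeR). An unadjusted *p*-value under 0.05 was reached by 2 of the 8 histone deacetylases, *Hdac4* and *Hdac2*, and by 21.3% of all tested genes.

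Within the sexes *Hdac2* stood at 117.8 CPM in SCA1-High-FAPs against 88.1 CPM in SCA1-Low-FAPs of male mice, and at 133.5 and 108.0 CPM in those of female mice. The states did not overlap in either sex, but with 2 libraries each this says little, and over all libraries they overlapped. The share of all tested genes that separate in this way within the sexes was not counted. The gene was called under none of the 16 alternatives, and its adjusted *p*-values ran from 0.186 to 0.443 (edgeR and DESeq2).

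*Hdac1* had 98.7, 92.1, 72.2 and 121.8 CPM in SCA1-High-FAPs against 85.1, 100.7, 93.7 and 80.4 CPM in SCA1-Low-FAPs. The SCA1-Low-FAPs libraries all fell inside the range of the SCA1-High-FAPs libraries. Its log2 fold change was −0.10 with a 95% interval from −0.48 to 0.28 (adjusted *p* = 0.818, edgeR), which again lay within the size of 0.5. The gene is on chromosome 4 (chr4:129516104-129542713, minus strand) and *Hdac2* on chromosome 10 (chr10:36974544-37001889, plus strand, both GRCm38).

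*Hdac3* is the catalytic subunit of the NCoR and SMRT corepressors. It had 13.6, 16.6, 11.2 and 14.9 CPM in SCA1-High-FAPs, a narrow range, and 6.25, 24.9, 23.0 and 13.4 CPM in SCA1-Low-FAPs. The coefficient of variation of the former was 16.3% and that of the latter 51.5%, a difference in spread that was not tested. The log2 fold change of 0.26 had a 95% interval from −0.57 to 1.08 (adjusted *p* = 0.778, edgeR).

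*Hdac8*, a class I enzyme that acts outside these complexes and deacetylates the cohesin subunit SMC3, was read at 15, 6, 51 and 23 counts in SCA1-High-FAPs against 31, 5, 21 and 38 counts in SCA1-Low-FAPs. SCA1-High-FAPs replicate 3 gave the most counts and replicate 2 was low in both states. The log2 fold change was −0.20 with a 95% interval from −1.43 to 1.04 (adjusted *p* = 0.897, edgeR), and it became 0.50 without SCA1-High-FAPs replicate 3 and 0.08 without SCA1-Low-FAPs replicate 2. No direction can be given for it. The class I genes together summed to 245.7 ± 17.7 CPM in SCA1-High-FAPs against 213.5 ± 10.8 CPM in SCA1-Low-FAPs. These sums overlapped narrowly, with the lowest SCA1-High-FAPs library at 227.7 CPM and the highest SCA1-Low-FAPs library at 228.0 CPM, and were not tested. Of the 4 genes edgeR and DESeq2 both called 0. An unadjusted *p*-value under 0.05 was reached by 1 (*Hdac2*) in edgeR, beside 21.3% of all tested genes, and by 0 in DESeq2.

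*Hdac6*, the mainly cytoplasmic enzyme that deacetylates tubulin and HSP90, had 17.8, 8.09, 23.6 and 7.29 CPM in SCA1-High-FAPs against 10.1, 8.12, 12.6 and 13.9 CPM in SCA1-Low-FAPs. All 4 SCA1-Low-FAPs libraries lay within the range of the others. The log2 fold change of −0.32 had a 95% interval from −1.21 to 0.56 (adjusted *p* = 0.73, edgeR) and became 0.04 without SCA1-High-FAPs replicate 3. *Hdac11*, the single class IV enzyme, had 4, 0, 21 and 1 counts in SCA1-High-FAPs against 2, 4, 15 and 3 counts in SCA1-Low-FAPs, most of them in replicate 3 of either state. SCA1-High-FAPs replicate 3 was the highest library for 4 of the 10 genes (*Hdac2*, *Hdac8*, *Hdac6* and *Hdac11*), more than any other library. How often it was the highest over all tested genes was not counted.

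**Figure D3:**
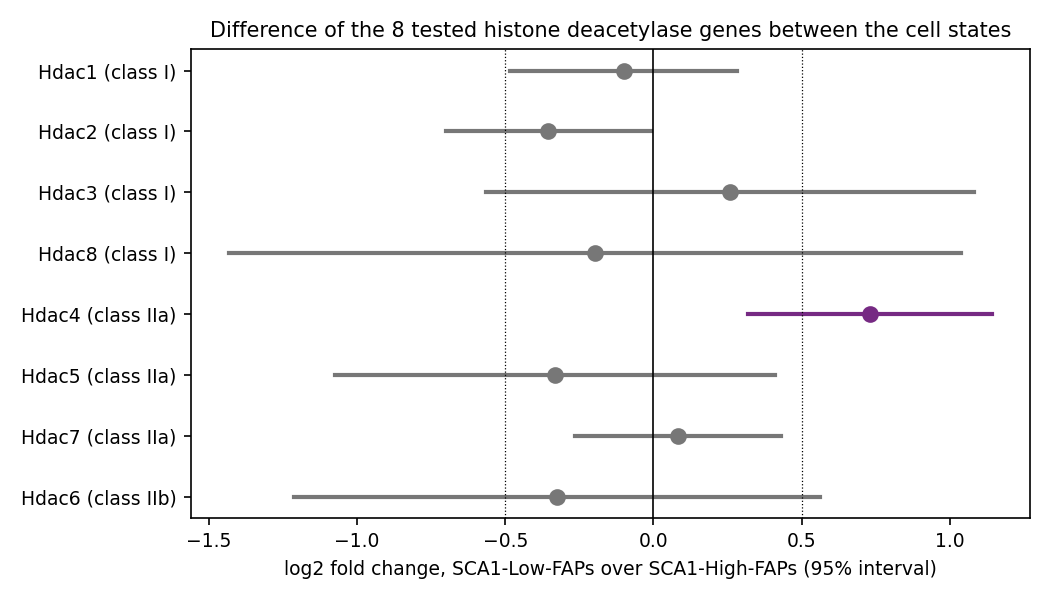
Log2 fold change (horizontal axis, SCA1-Low-FAPs over SCA1-High-FAPs) of the 8 tested histone deacetylases with 95% intervals, purple where called, and dotted lines at 0.5 on either side. *Hdac4* lies at 0.73 with an interval from 0.32 to 1.14, and the intervals of *Hdac1* and *Hdac7* stay within the dotted lines.

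The summed histone deacetylase mRNA was nearly the same in both states, with 540.8 ± 37.1 CPM in SCA1-High-FAPs against 538.4 ± 39.8 CPM in SCA1-Low-FAPs (n = 4 each). The make-up of this sum differed in the share of *Hdac4*, which was 7.87% ± 1.12 in SCA1-High-FAPs against 13.1% ± 0.94 in SCA1-Low-FAPs. The share of *Hdac2* was 23.3% ± 2.6 and 18.2% ± 1.7. *Hdac7* took 37.9% ± 3.8 and 40.2% ± 4.7, within the spread. These shares follow from the levels above and were not tested.

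**Figure D4:**
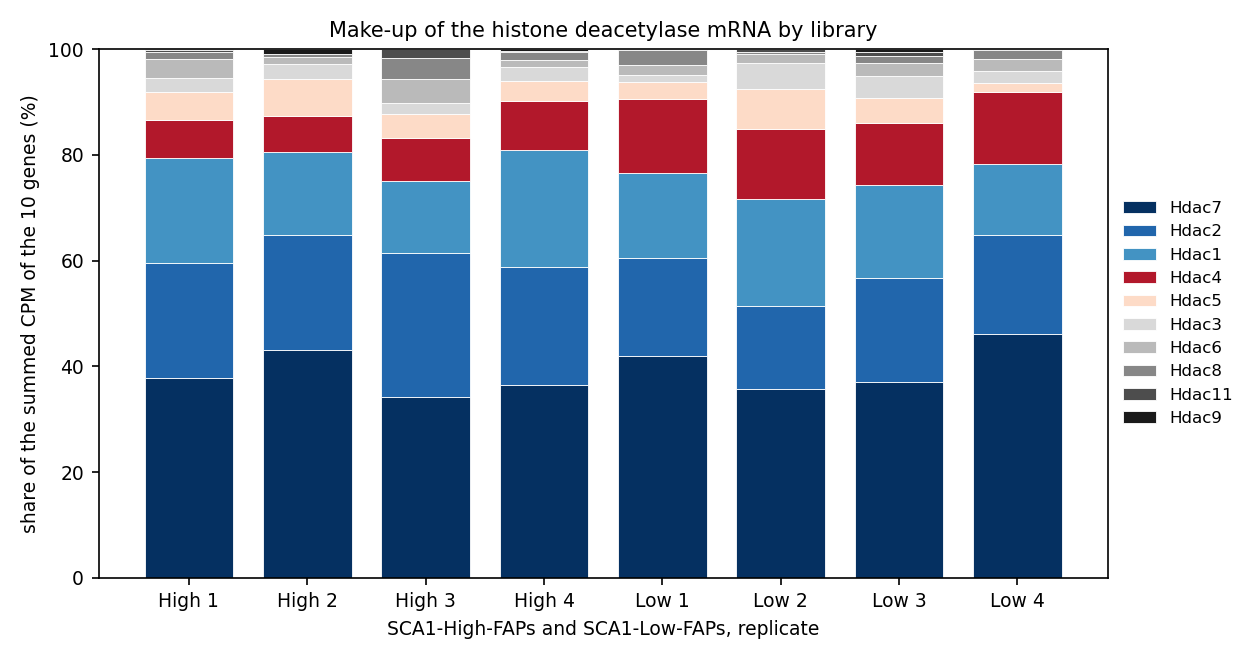
Share of each histone deacetylase in the summed CPM of the 10 genes (vertical axis, percent) for each of the 8 libraries. *Hdac4*, in red, takes 7.87% on average in SCA1-High-FAPs against 13.1% in SCA1-Low-FAPs, and *Hdac7*, at the bottom, is the largest part in every library.

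Genes that work with these enzymes were read from 6 lists of 101 genes in all, 92 of which were tested. Of these, 4 were called as higher in SCA1-Low-FAPs and 2 as higher in SCA1-High-FAPs, beside 3.32% and 4.36% over all tested genes, and the median log2 fold change of the 92 genes was −0.08. The calls were spread over acetyltransferases, partners of class IIa enzymes and substrates of *Hdac6*. The list of corepressor subunits had none. The markers of dividing cells and fat cells given above moved with the cell states here too, and their part in these calls was not tested.

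*Kat2b*, which encodes the lysine acetyltransferase PCAF, showed the largest difference among these genes. It was higher in SCA1-High-FAPs, with 44.0, 33.2, 42.7 and 45.2 CPM against 12.02, 19.0, 19.2 and 12.6 CPM, a log2 fold change of −1.40 ± 0.26 (SE, adjusted *p* = 0.00338, edgeR). The states did not overlap, and the gene was called under all 16 alternatives. *Hat1*, the acetyltransferase of newly made histone H4, went the other way, with 17.4 ± 4.2 CPM in SCA1-High-FAPs against 39.2 ± 13.3 CPM in SCA1-Low-FAPs (a difference of 1.15 on the log2 scale, adjusted *p* = 0.0234, edgeR). It kept the call under 10 of the 16 alternatives and lost it under the replicate block (adjusted *p* = 0.0663 in edgeR and 0.0567 in DESeq2). The other 12 tested acetyltransferases were not called, among them *Ep300* and *Crebbp* with log2 fold changes of −0.05 and −0.35.

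Among the partners of class IIa enzymes, 20 of 23 were tested. *Mef2c*, a transcription factor that these enzymes bind, was higher in SCA1-High-FAPs, with 45.8, 50.3, 48.5 and 35.4 CPM against 26.0, 23.8, 27.1 and 22.8 CPM and no overlap. Its log2 fold change was −0.85 ± 0.23 (SE, adjusted *p* = 0.0287, edgeR), opposite in sign to that of *Hdac4*. With the replicate block the adjusted *p*-value was 0.0607 in edgeR and 0.0857 in DESeq2, and 8 of the 16 alternatives kept the call. *Mef2a* and *Mef2d* had log2 fold changes of −0.45 and −0.13 and did not pass (adjusted *p* = 0.201 and 0.824, edgeR), and *Mef2b* had no count. *Ywhah*, an adaptor that binds phosphorylated class IIa enzymes, was higher in SCA1-Low-FAPs by 0.68 on the log2 scale (adjusted *p* = 0.0465, edgeR), although its levels overlapped between the states, and 9 of the 16 alternatives kept the call. The other 5 Ywha genes were not called, and neither were the kinases of the list nor the export receptor *Xpo1* (0.48, adjusted *p* = 0.179, edgeR).

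Of the 14 genes on the list of substrates of *Hdac6* and *Hdac8* and their regulators, all were tested. *Tuba1b*, an alpha-tubulin gene, had 712.1 ± 58.4 CPM in SCA1-High-FAPs against 1196 ± 228 CPM in SCA1-Low-FAPs (a difference of 0.75 on the log2 scale, adjusted *p* = 0.00615, edgeR), and it was called under all 16 alternatives. *Hsp90aa1*, which encodes an HSP90 chaperone, had 445.8 ± 48.5 and 688.8 ± 119.7 CPM (0.63, adjusted *p* = 0.0166, edgeR) and kept the call under 13 of 16, but not with the replicate block in edgeR (adjusted *p* = 0.0516). The cohesin genes *Smc3* and *Smc1a*, whose products include the substrate of *Hdac8*, had log2 fold changes of 0.14 and 0.09 and were not called. *Atat1*, the tubulin acetyltransferase, had the lowest value of the list at −0.59 (adjusted *p* = 0.52, edgeR).

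The subunits of corepressor complexes gave no call in edgeR or in DESeq2 among the 34 tested of 36 listed. An unadjusted *p*-value under 0.05 was reached by 6 of the list in edgeR, beside 21.3% of all tested genes. In DESeq2 it was reached by 7, and the share over all genes was not counted there. Their median log2 fold change was 0.0055, from −0.70 for *Rcor3* to 0.69 for *Elmsan1*. *Ncor1*, the partner of *Hdac3*, had 495.0 CPM in SCA1-High-FAPs against 395.3 CPM in SCA1-Low-FAPs (−0.33, adjusted *p* = 0.155, edgeR), and *Mbd3* of the NuRD complex had 53.9 and 82.8 CPM (0.61, adjusted *p* = 0.0713, edgeR). The states did not overlap for these 2 genes, which are among 5 such genes of the 34 tested on this list, beside 14.1% of all tested genes.

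Of 8 other deacetylase genes, *Hdac10* and *Sirt1* to *Sirt7*, 6 were tested and 0 called by edgeR or DESeq2. An unadjusted *p*-value under 0.05 was reached by 1 in either, beside 21.3% of all tested genes in edgeR. Their median log2 fold change was −0.46, from −0.94 for *Sirt6* to 0.48 for *Sirt7*. *Hdac10*, the class IIb relative of *Hdac6*, had 10.0 and 8.72 CPM. In the last list, of BAF60 subunits and genes known to respond to deacetylase inhibitors in FAPs, *Smarcd1*, *Smarcd2*, *Smarcd3* and *Fst* were not called, with log2 fold changes of −0.51, −0.16, 0.25 and −0.52, and *Myod1* and *Myog* had no count. The call on that list was *Mef2c*, already described, with its lowest value of −0.85.

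**Figure D5:**
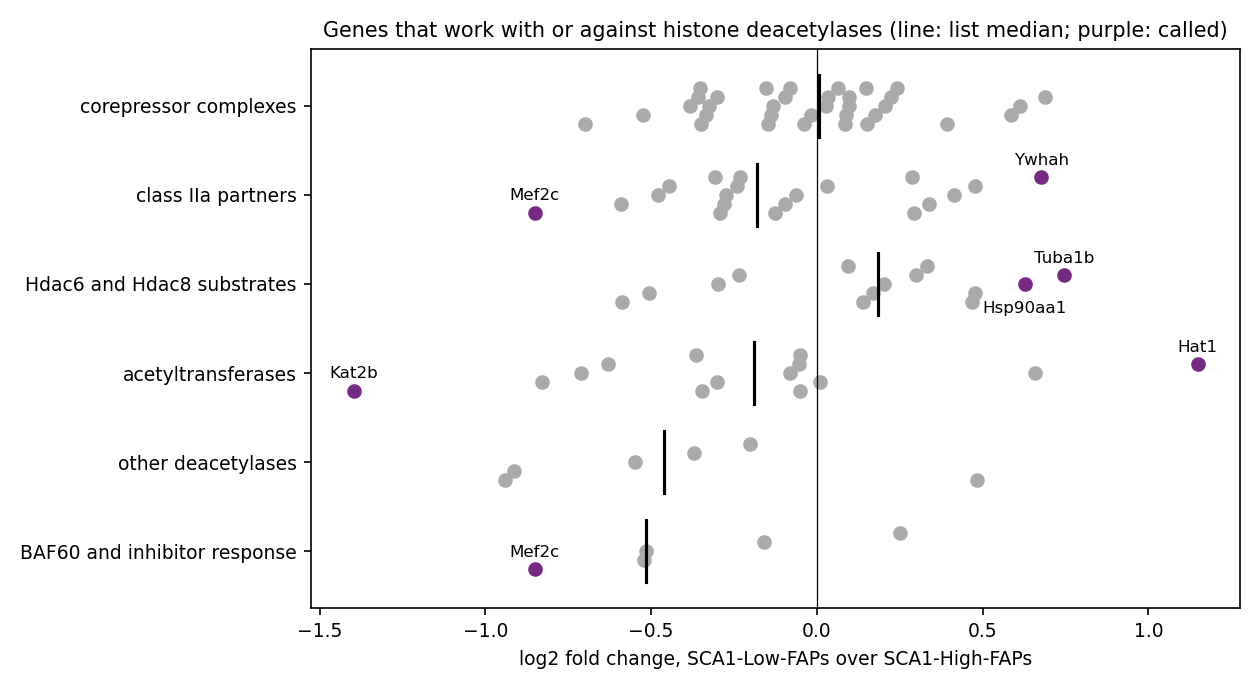
Log2 fold change (horizontal axis, SCA1-Low-FAPs over SCA1-High-FAPs) of the tested genes of 6 lists that work with or against histone deacetylases, with a black line at each list's median, purple for called genes and grey for the others; *Mef2c* is on 2 lists. The called genes range from −1.40 for *Kat2b* to 1.15 for *Hat1*, and the corepressor list is centred at 0.0055.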

How the data were processed

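The RNA-seq measured mRNA 3′ ends (QuantSeq FWD kit, total RNA) in 8 libraries. After trimming, the authors mapped reads to mm10 (per the labels) with STAR, assigned them to Ensembl genes with HTSeq and deposited the raw counts, not normalised. Reads with several alignments were left out of the genes. The strand setting is not given in the sources used here. Reads on no gene made up 13.3% to 16.4%. Precision is limited by depth (1880561 to 3985656 counts per library), and the 3-count floor concerns counting error alone. Symbols were found for 30934 of 31053 identifiers.

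The cell states were tested with edgeR 4.0.16 (R 4.3.3), using its robust quasi-likelihood test and TMM factors, after filterByExpr (minimum 10 counts, 15 in total), without a block. Benjamini-Hochberg adjustment covered all 10181 tested genes, and a called gene had to pass both 0.05 for the adjusted *p*-value and 0.5 for the size of the log2 fold change, taken as SCA1-Low-FAPs over SCA1-High-FAPs. Standard errors were derived from the log2 fold change and its F statistic. The test was also run on simulated counts with known changes, in which all genes had the same spread, unlike the genes here. That run does not show which differences of the histone deacetylases could have been missed. Alternatives were DESeq2 1.42.0, RLE factors, other filters, no robust estimation, no fold limit, each library left out in turn, replicate blocks, and sex as a term, which was added after the data had been seen.

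Both states came from 4 mice, but whether equal replicate numbers mean the same mouse is not stated. The numbers were not taken as pairs. If libraries of a state shared culture steps, *p*-values measure only the spread between these libraries.

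The members and the lists of partners and markers were chosen with earlier results of these data known. Named were all 10 histone deacetylases, called partner genes and the extremes of each list, and the 3 genes nearest to the called member. Other partners named beside these were chosen after their values were seen. Gene positions are from GENCODE M21 and promoters from RefSeq (GRCm38.p6). A further short list of partner genes is not reported here.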

Additional observations from a re-analysis of the deposited data

Results flagged for a closer look

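*Hdac9* in SCA1-Low-FAPs was flagged because 1 library stood far from the others of its group. Replicate 3 had 8 counts, or 2.52 CPM, and the other 3 libraries had 0. The gap as a share of the range was 1, above Dixon's 95% critical value for 4 samples. With the other 3 libraries at 0, any count in the remaining library gives this value. The flag therefore tells nothing about the size of the gap. This was 1 of 20 groups of 4 libraries examined. For normally spread values chance flags about 1 in 20 groups, a rate that need not hold for counts near 0.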

How the results depend on the processing

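The direction of *Hdac4* was the same under all 16 alternatives, and the call was kept under 9. The number of histone deacetylases called fell from 1 to 0 with the replicate block in edgeR and in DESeq2. The numbers were not shown to pair the libraries: deviations from the group means correlated at −0.050 to 0.0067 between same-numbered libraries, and 0 of 8 libraries correlated best with its own number, although the sexes matched in all 4 pairs. Leaving out each library in turn, it ran from 0 to 1, the number called over all tested genes from 410 to 1017 beside 782 (410 without SCA1-Low-FAPs replicate 4 and 417 without SCA1-Low-FAPs replicate 1), and the number of partner genes called from 2 to 9 beside 6. Partner calls fell to 3 with the replicate block in edgeR, and to 3 or fewer without SCA1-High-FAPs replicate 1 or SCA1-Low-FAPs replicate 1, 2 or 4. The block changed the calls of *Hdac4*, *Mef2c*, *Hat1* and, in edgeR, *Hsp90aa1*, and no other call of a gene named above from these lists. Leaving out 1 library turned the sign of 4 genes that were not called: *Hdac1* ran from −0.218 to 0.0354, *Hdac8* from −0.561 to 0.496, *Hdac7* from −0.0542 to 0.205 and *Hdac6* from −0.545 to 0.0408. *Ywhah* lost its call without robust estimation (adjusted *p* = 0.0577, edgeR). Division by exonic length left 5 of the 10 genes at their place in the order of levels. Fits without a library have fewer samples, and the cause of the other losses was not tested. Depth limits *Hdac8*, *Hdac9* and *Hdac11* most, with at most 51, 12 and 21 counts in a library.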
